A study of Mus musculus with 6 samples.

Results

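Genes of glycolysis and of the response to low oxygen were followed in CD11b+Gr-1+ cells sorted from mouse liver. A list of 35 genes was named by pathway step, and a gene entered where the platform annotation gave a row of the value table that 1 symbol, current or older. Of the 35 genes, 32 were found, among 19938 genes measured in all; Ero1l was found under its current symbol Ero1a. Gapdh had 25 rows, each shared with other symbols, and Gpi1 and Eno1 had no row matched by symbol, so these 3 genes are not analysed here. For a gene with several rows, the brightest row by its average over 6 arrays was used.

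All mice were C57BL/6 and carried EL4 tumours, which grow from a transplantable mouse T cell lymphoma. The control group received PBS (3 arrays) and the other group received type IV concanavalin A (Con A; 3 arrays), a lectin from jack bean known to stimulate T lymphocytes and cause hepatitis, and cells were taken 3 hours later. The labels disagree on the dose: the design text has 12.5 mg/kg, whereas 12.5 ug/kg stands under treatment. The labels name the cells myeloid-derived suppressor cells, a name for immature myeloid cells of both granulocytic and monocytic type with T cell restraining activity, and give 3 mice per group without tying an array to a mouse, so p-values measure only how far these samples spread, and that spread may be technical.

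Cells take up glucose through carriers of the SLC2A family, trap it with hexokinases and split it through phosphofructokinase and aldolase into triose phosphates, which the later steps turn into pyruvate. Pyruvate either becomes lactate or is used in mitochondria by pyruvate dehydrogenase. The hypoxia-inducible factors (HIF) raise many of these genes: with oxygen present, prolyl hydroxylases of the EGLN family mark the HIF alpha subunits for the VHL ubiquitin ligase, and without it the subunits persist. Myeloid cells rely heavily on glycolysis, and HIF-1 also responds to inflammatory signals in them.

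Values are log2 expression from a gene array, normalised by RMA, and differences are Con A minus PBS. The sorted cells matched their label in their defining transcripts. Itgam, which encodes CD11b, read 12.92 ± 0.15 after PBS and 12.77 ± 0.04 after Con A (SD, n = 3), and Ly6g, part of the Gr-1 antigen, read 13.59 ± 0.09 and 13.50 ± 0.05. Over 13 granulocytic markers the mean level lay between 12.46 and 12.56 after PBS and between 12.52 and 12.65 after Con A. Of the 13, 1 was lower by limma, Mmp9, at 1.49-fold (limma adjusted p = 0.00401). Elane and Mpo differed by 0.76 and 0.73 and did not pass (limma adjusted p = 0.194 and 0.0653). Of all genes tested, 4.59% were higher and 7.22% lower, shares to be read beside each marker count here. Over 9 monocytic markers the mean level lay lower after Con A, between 9.69 and 10.14 against 10.44 and 10.80. By limma 3 of the 9 were lower and 2 higher. F13a1, Ccr2 and Cx3cr1 were 4.46-fold, 4.01-fold and 3.5-fold lower (limma adjusted p = 0.000808, 0.00177 and 0.00148). Irf8 and Cd14 were 1.98-fold and 1.77-fold higher (limma adjusted p = 0.0189 and 0.017). Of 4 eosinophil markers, 2 were higher, and their mean lay between 9.14 and 9.68 after Con A and between 8.42 and 9.17 after PBS. Con A replicate 2 had the highest mean of the Kupffer cell (9.08), platelet (8.84) and hepatocyte (7.24) markers, where PBS arrays reached 7.95, 7.42 and 6.47. The hepatocyte mean was 6.55 and 6.52 in Con A replicates 1 and 3, also above every PBS array. All 9 hepatocyte markers had a difference above 0, and 0 passed by limma. The mean of the platelet markers in Con A replicate 3 (8.09) also lay above every PBS array, and Itga2b, a platelet integrin gene, was higher in all 3 Con A arrays (1.66-fold, limma adjusted p = 0.00247). Of the 10 Kupffer cell markers 1 passed, and in the other direction: Slc40a1, the iron exporter ferroportin, was 2.29-fold lower in all Con A arrays (limma adjusted p = 0.000561). Over 5 erythroid markers the mean lay between 6.54 and 6.62 after PBS and between 6.74 and 6.76 after Con A, below the array medians, and over 5 B cell markers between 6.88 and 7.25 against 6.82 and 6.88. Of the 5 erythroid markers 1 was higher, Car2 (limma adjusted p = 0.0356). Of the 5 B cell markers 1 was lower, Ms4a1 (limma adjusted p = 0.0282). The mean of the T cell markers lay between 6.23 and 6.42 in all arrays, and the means of the NK cell and the endothelial markers overlapped between the groups. Of 7 endothelial markers 1 was lower without overlap, Lyve1, at 2.52-fold (limma adjusted p = 0.0111). The lowest value in the table is 2.15, so no marker is at 0. In sorted cells measured in bulk, fewer cells of a type and less RNA per cell cannot be told apart, and the part of these marker shifts in the results on glycolysis and hypoxia genes was not tested.

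After Con A, 9 of the 32 genes rose and 3 fell by limma with Benjamini-Hochberg adjustment over all genes (threshold 0.05). The oxygen-sensing hydroxylase gene Egln3 rose most, 3.15-fold, and the liver-type phosphofructokinase gene Pfkl, the mitophagy receptor gene Bnip3 and the glucose carrier gene Slc2a1 each rose by more than 1 on the log2 scale. Slc2a3, Pfkfb4 and Ndrg1 fell. The lower glycolytic enzymes and lactate dehydrogenase did not pass the test. Of the members 28.1% were higher, where 4.59% of all genes were, and 9.38% were lower, where 7.22% of all genes were, so the share that fell was close to the background. The members were chosen with earlier results of these data known. They were also brighter, with a median level of 10.75 against 7.25 over all genes. In a fit of only the genes above the median level, 886 of 9968 genes were higher and 1480 lower. Of the 29 members in that fit, 9 were higher and 3 lower. The groups did not overlap in 18 of the 32 genes, or 56.2%, against 29.9% of all genes. The median difference of the 32 genes was 0.09, and that of all genes tested was 0.02. The count of higher genes dropped from 9 to 3 when PBS replicate 1, Con A replicate 2 or Con A replicate 3 was left out.

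**Figure D1:**
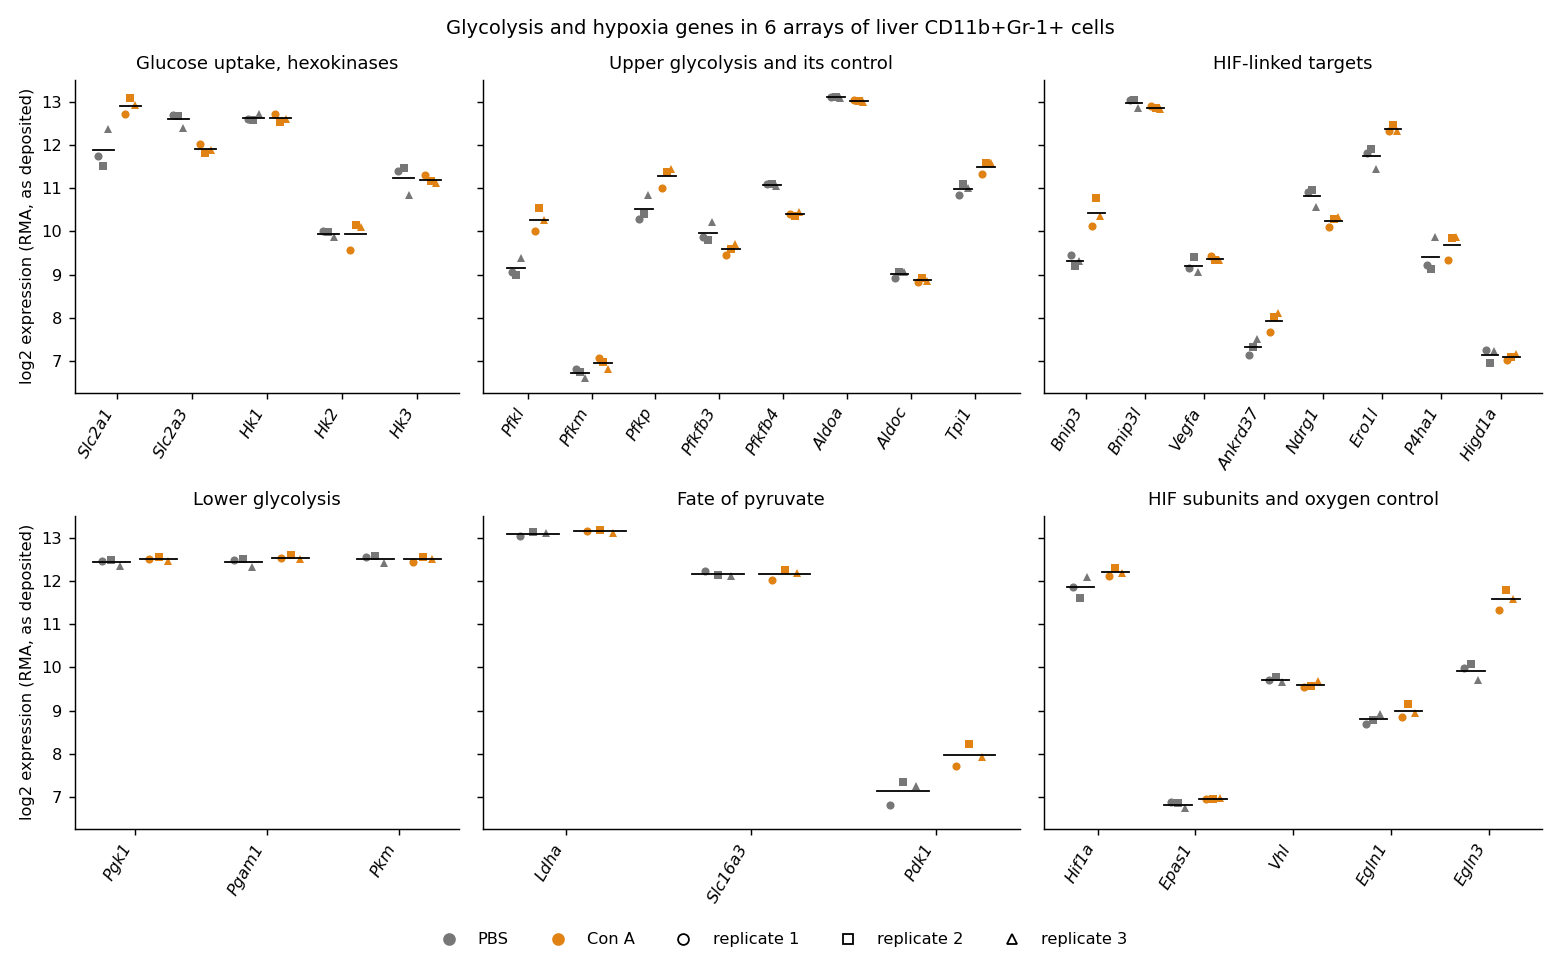
Log2 expression of each of the 32 genes (vertical axis, RMA values as deposited) in 6 panels by pathway step; grey symbols are PBS arrays, orange symbols Con A arrays, the symbol shape gives the replicate number and black lines are group means. Egln3 separates most, from 9.92 to 11.58, while the lower glycolysis genes lie level near 12.5 in both groups.

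**Figure D2:**
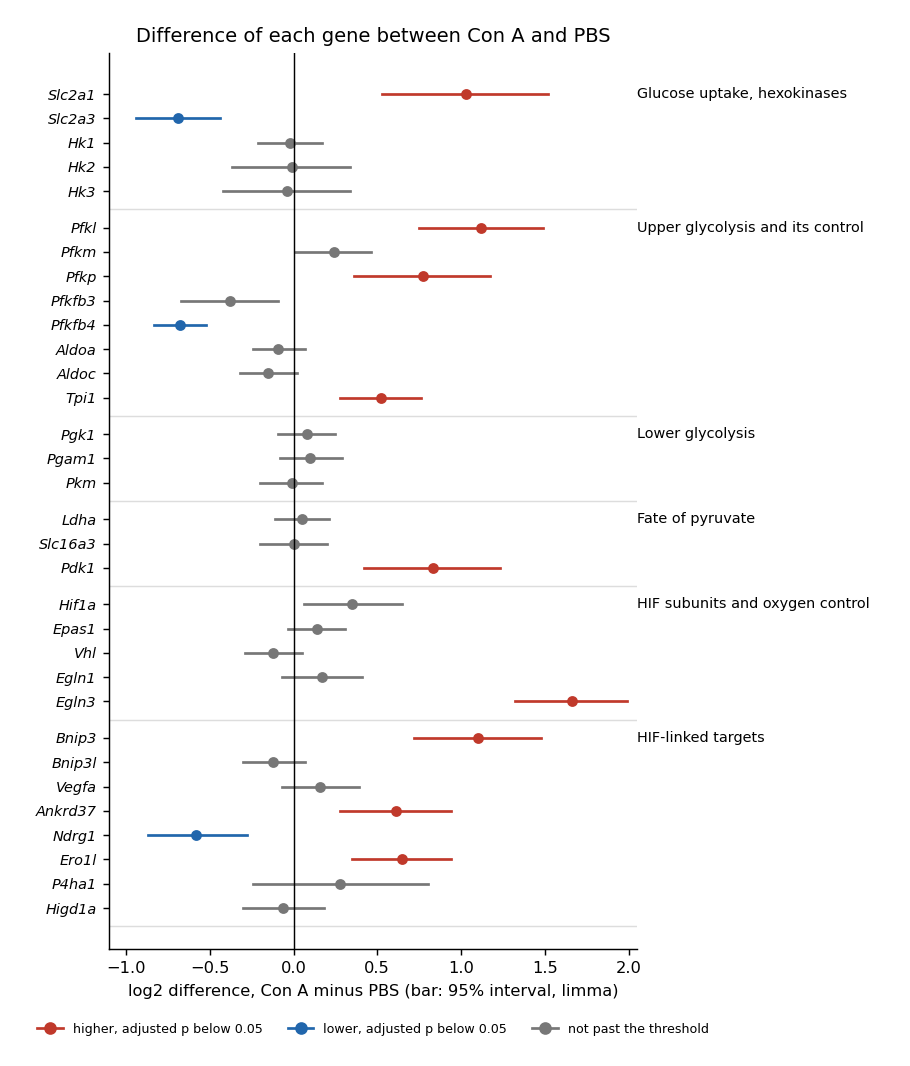
Log2 difference between Con A and PBS for each gene (points) with its 95% interval from limma (bars), ordered by pathway step; red genes are higher and blue genes lower at an adjusted p below 0.05, and grey genes did not pass. Red points stand in every step but lower glycolysis, from 0.52 for Tpi1 to 1.66 for Egln3.

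Promoter windows are shown for the 3 genes with the largest rises and for Pfkfb4, the gene among those that fell for which the promoter table held a window, so that the letters can be read beside the values. Each window runs from 250 bases before to 50 bases after the RefSeq start (GRCm38.p6), 5′ to 3′ on the gene's strand, and capitals mark the core of the hypoxia response element, ACGTG or GCGTG, on either strand (CACGT or CACGC where it lies on the other strand). Counted from the start, the leftmost base of the match lies at -229 in Egln3, -99 in Pfkl and -117 in Pfkfb4.
Egln3 promoter, chr12:54203825-54204124, - strand: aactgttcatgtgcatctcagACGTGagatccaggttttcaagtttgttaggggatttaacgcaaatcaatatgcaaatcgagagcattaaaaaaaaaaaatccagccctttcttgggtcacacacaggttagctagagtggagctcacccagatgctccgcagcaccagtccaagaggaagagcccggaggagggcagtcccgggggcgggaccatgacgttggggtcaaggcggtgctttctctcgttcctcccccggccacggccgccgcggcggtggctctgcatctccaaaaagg
Pfkl promoter, chr10:78009758-78010057, - strand: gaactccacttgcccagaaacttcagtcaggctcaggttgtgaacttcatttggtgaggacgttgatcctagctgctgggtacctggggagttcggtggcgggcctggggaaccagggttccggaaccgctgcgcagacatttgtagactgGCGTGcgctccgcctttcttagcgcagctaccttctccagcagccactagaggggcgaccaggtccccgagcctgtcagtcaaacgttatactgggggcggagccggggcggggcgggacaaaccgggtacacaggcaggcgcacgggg
Bnip3 promoter, chr7:138909457-138909756, - strand: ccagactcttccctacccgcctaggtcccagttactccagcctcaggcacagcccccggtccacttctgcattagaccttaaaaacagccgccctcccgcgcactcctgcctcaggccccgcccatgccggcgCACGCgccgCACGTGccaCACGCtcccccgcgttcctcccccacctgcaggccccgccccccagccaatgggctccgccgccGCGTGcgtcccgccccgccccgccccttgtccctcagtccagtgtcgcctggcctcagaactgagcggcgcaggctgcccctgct
Pfkfb4 promoter, chr9:108991652-108991951, + strand: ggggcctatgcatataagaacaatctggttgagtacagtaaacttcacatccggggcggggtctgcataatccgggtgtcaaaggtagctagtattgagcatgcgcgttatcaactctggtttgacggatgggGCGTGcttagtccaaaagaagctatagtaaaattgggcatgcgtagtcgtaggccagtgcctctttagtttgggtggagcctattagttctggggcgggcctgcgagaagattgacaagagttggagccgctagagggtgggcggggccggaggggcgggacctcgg
The Bnip3 window held 5 matches, 2 of which overlap in a CACGTG, which is also the E-box letters and counts once on each strand. Of 10 windows of 9 genes that rose, 8 held at least 1 match (80.0%), as did 23 of 29 windows of genes that did not pass the test (79.3%). Among the windows of all genes tested, 51.7% held a match, and 43.8% of all 32851 windows in the table did. A match is a description of the letters and not a bound site, and the Tpi1 window, of a gene that rose, held 0.

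Transcripts of 2 glucose carriers moved in opposite directions; glucose uptake itself was not measured. Slc2a1, which encodes the widely expressed carrier GLUT1 (probe set 10507594), read 11.76, 11.53 and 12.38 in the PBS arrays and 12.72, 13.09 and 12.94 in the Con A arrays. PBS replicate 3 was the highest control, and the groups did not overlap. The rise was 2.04-fold, 1.03 on the log2 scale (95% interval 0.53 to 1.52, limma adjusted p = 0.0215). This call was lost without PBS replicate 1, Con A replicate 2 or Con A replicate 3, at limma adjusted p = 0.0951, 0.0943 and 0.0726. Slc2a3, which encodes the high-affinity carrier GLUT3 (probe set 10547641), read 12.71, 12.67 and 12.41 after PBS and 12.03, 11.81 and 11.88 after Con A. Every Con A array lay below every PBS array, and the level was 1.61-fold lower (log2 difference -0.69, 95% interval -0.94 to -0.44, limma adjusted p = 0.00689). With 1 array left out, its limma adjusted p stayed between 0.00219 and 0.0371.

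The hexokinases, which phosphorylate glucose on entry, did not pass the test. Hk2 differed by -0.01 (95% interval -0.37 to 0.34) and Hk3, a form found in myeloid cells, by -0.04 (-0.42 to 0.34). Hk1 had 2 rows that disagreed. The brighter row, which stood for the gene, read 12.64 ± 0.07 after PBS and 12.63 ± 0.09 after Con A, and its annotation lists 1 accession, which is no RefSeq mRNA. The other row, annotated with 8 accessions of which 2 are RefSeq mRNAs, read 10.77, 10.83 and 10.56 after PBS and 11.25, 11.32 and 11.25 after Con A. That row was higher by 0.56 without overlap (95% interval 0.35 to 0.77, limma adjusted p = 0.00805 over all rows with 1 symbol), so the result for Hk1 turns on the row. The other 6 genes with several rows had all rows in 1 direction.

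At the phosphofructokinase step, which commits glucose to glycolysis, 2 of the 3 subunit genes rose, where 4.59% of all genes did. Pfkl, the liver-type subunit (probe set 10370376), read 9.06, 8.99 and 9.39 after PBS and 10, 10.54 and 10.26 after Con A. The lowest Con A array lay 0.61 above the highest PBS array, and the rise was 2.17-fold (log2 difference 1.12, 95% interval 0.75 to 1.49, limma adjusted p = 0.00509). Pfkp, the platelet-type subunit (probe set 10407481), read 10.28, 10.41 and 10.84 after PBS and 11, 11.38 and 11.46 after Con A, with a gap of 0.16 between the groups. It rose 1.70-fold (limma adjusted p = 0.0294). That call was lost in 4 of the 6 fits with 1 array left out: leaving out PBS replicate 1 gave a limma adjusted p of 0.113, PBS replicate 2 gave 0.0832, Con A replicate 2 gave 0.118 and Con A replicate 3 gave 0.101. Pfkm, the muscle-type subunit, lay below the array medians of 7.05 to 7.08, at 6.72 ± 0.12 and 6.95 ± 0.12, and did not pass the test (log2 difference 0.24, limma adjusted p = 0.187).

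The bifunctional PFKFB enzymes make and break down the sugar bisphosphate that activates phosphofructokinase, and both measured members of the list, Pfkfb3 and Pfkfb4, lay lower after Con A in every array. Pfkfb4 (probe set 10589329) read 11.11, 11.09 and 11.05 after PBS and 10.40, 10.37 and 10.45 after Con A. The spread within each group was small (SD 0.03 and 0.04), and the level was 1.60-fold lower (log2 difference -0.68, 95% interval -0.83 to -0.52, limma adjusted p = 0.0015). Its call held with any 1 array left out, at limma adjusted p from 0.00181 to 0.0119. Pfkfb3, the form with the strongest synthetic activity, read 9.88, 9.80 and 10.21 after PBS and 9.46, 9.59 and 9.71 after Con A. Its groups did not overlap, and it missed the threshold (log2 difference -0.38, 95% interval -0.67 to -0.09, limma adjusted p = 0.106).

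Among the enzymes that split and interconvert the sugars, the triose phosphate isomerase gene Tpi1 (probe set 10547830) rose. It read 10.85, 11.10 and 11 after PBS and 11.34, 11.58 and 11.58 after Con A, a 1.43-fold rise (log2 difference 0.52, limma adjusted p = 0.0174). Without PBS replicate 1, Con A replicate 2 or Con A replicate 3 its limma adjusted p was 0.0714, 0.0742 and 0.0673. Neither aldolase gene passed: Aldoa differed by -0.09 (95% interval -0.24 to 0.07) and Aldoc by -0.15 (-0.32 to 0.02), although every Con A array lay below every PBS array in both.

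Of the 3 measured lower glycolysis genes, 0 passed by limma, and 0 had an unadjusted p below 0.05. Pgk1, phosphoglycerate kinase, differed by 0.08 (95% interval -0.09 to 0.25), Pgam1, phosphoglycerate mutase, by 0.10 (-0.08 to 0.29) and Pkm, pyruvate kinase, by -0.01 (-0.20 to 0.17). All 3 were bright, with group means between 12.44 and 12.55 where the highest value in the table is 14.3. Of the 12 members with a mean level of 12 or more, 3 passed the test (2 higher, 1 lower), and of all 501 genes that bright 101 did (20.2%).

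Of the 3 genes for the fate of pyruvate, 1 passed the test, Pdk1, which encodes a kinase that inhibits pyruvate dehydrogenase. It was higher, as were 4.59% of all genes. Pyruvate use itself was not measured. Pdk1 (probe set 10472846) read 6.81, 7.34 and 7.24 after PBS and 7.72, 8.23 and 7.93 after Con A. Its PBS values lay near the array medians of 7.05 to 7.08, that of replicate 1 below them. Signal over background at that level is unknown without detection calls. The groups did not overlap, and the rise was 1.78-fold (log2 difference 0.83, 95% interval 0.42 to 1.23, limma adjusted p = 0.0222). Without PBS replicate 1, Con A replicate 2 or Con A replicate 3 its limma adjusted p was 0.0681, 0.0797 and 0.0682. Ldha, which turns pyruvate into lactate, read 13.10 ± 0.04 and 13.16 ± 0.04, and Slc16a3, the lactate exporter MCT4, read 12.16 ± 0.06 and 12.16 ± 0.12, with differences of 0.05 (95% interval -0.11 to 0.21) and 0.00 (-0.20 to 0.20).

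Among the HIF subunits and their oxygen-dependent regulators, Egln3 (PHD3), itself a well-known HIF target, had the largest difference of the 32 genes. Egln3 (probe set 10400304) read 9.98, 10.09 and 9.70 after PBS and 11.34, 11.80 and 11.60 after Con A. The lowest Con A array stood 1.25 above the highest PBS array. The difference was 1.66 (95% interval 1.32 to 1.99, limma adjusted p = 0.000992), and with 1 array left out it ranged from 1.55 to 1.78, past the threshold in all 6 fits. Egln1 (PHD2), the main oxygen sensor of the family, differed by 0.17 with overlapping groups (limma adjusted p = 0.36).

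Hif1a, the oxygen-regulated subunit of HIF-1, read 11.86, 11.61 and 12.10 after PBS and 12.12, 12.31 and 12.20 after Con A. The groups were separated by 0.02, and the difference of 0.35 (95% interval 0.06 to 0.65) missed the threshold (limma adjusted p = 0.133). Without PBS replicate 3, the highest control, it was 0.47 and passed (limma adjusted p = 0.027). Epas1, the HIF-2 alpha gene, lay below the array medians at 6.82 ± 0.08 and 6.96 ± 0.01, and Vhl differed by -0.12 (limma adjusted p = 0.388). These are transcript levels, and HIF alpha subunits are controlled mainly as proteins, which were not measured.

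HIF-linked targets were mixed, with 3 of 8 higher (37.5%, against 4.59% of all genes) and 1 lower (12.5%, against 7.22% of all genes). Bnip3, a mitochondrial outer membrane protein that marks mitochondria for removal (probe set 10414269), read 9.45, 9.20 and 9.32 after PBS and 10.12, 10.77 and 10.37 after Con A. It rose 2.14-fold (log2 difference 1.10, 95% interval 0.72 to 1.48, limma adjusted p = 0.00575), and its other row was higher by 0.85. The related gene Bnip3l (NIX) differed by -0.12 (95% interval -0.30 to 0.07) with overlapping groups. Bnip3 kept its call with each single array left out, at limma adjusted p up to 0.0269.

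The other 2 targets that rose were Ero1l, an oxidase that forms disulfide bonds in the endoplasmic reticulum, and Ankrd37, an ankyrin repeat gene induced by HIF-1. Ero1l (probe set 10419198) read 11.83, 11.92 and 11.46 after PBS and 12.34, 12.48 and 12.32 after Con A, a 1.56-fold rise (limma adjusted p = 0.0173). Ankrd37 (probe set 10578515) read 7.14, 7.31 and 7.50 after PBS and 7.66, 8.01 and 8.11 after Con A, a 1.53-fold rise (limma adjusted p = 0.0322). Both were free of overlap, and both calls depended on single arrays. For Ero1l the limma adjusted p became 0.0538 on leaving out PBS replicate 1, 0.0774 on leaving out Con A replicate 2 and 0.0511 on leaving out Con A replicate 3. For Ankrd37, leaving out PBS replicate 1 gave 0.119, PBS replicate 2 gave 0.0794, Con A replicate 2 gave 0.123 and Con A replicate 3 gave 0.103.

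Ndrg1, a stress-response gene that low oxygen commonly raises, went the other way. It (probe set 10429140) read 10.91, 10.97 and 10.56 after PBS and 10.10, 10.29 and 10.33 after Con A, 1.49-fold lower (log2 difference -0.58, 95% interval -0.87 to -0.28, limma adjusted p = 0.025). That call was the least stable of the 12, lost in 5 of the 6 fits with 1 array left out. Leaving out PBS replicate 1 gave a limma adjusted p of 0.104, PBS replicate 2 gave 0.0721, Con A replicate 1 gave 0.0807, Con A replicate 2 gave 0.078 and Con A replicate 3 gave 0.0578. Vegfa, the vascular growth factor, differed by 0.16 (95% interval -0.07 to 0.39), P4ha1, a collagen prolyl hydroxylase subunit, by 0.28 (-0.24 to 0.80) and Higd1a, a mitochondrial hypoxia-inducible protein, by -0.06 (-0.30 to 0.18), and all 3 overlapped between the groups.

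**Figure D3:**
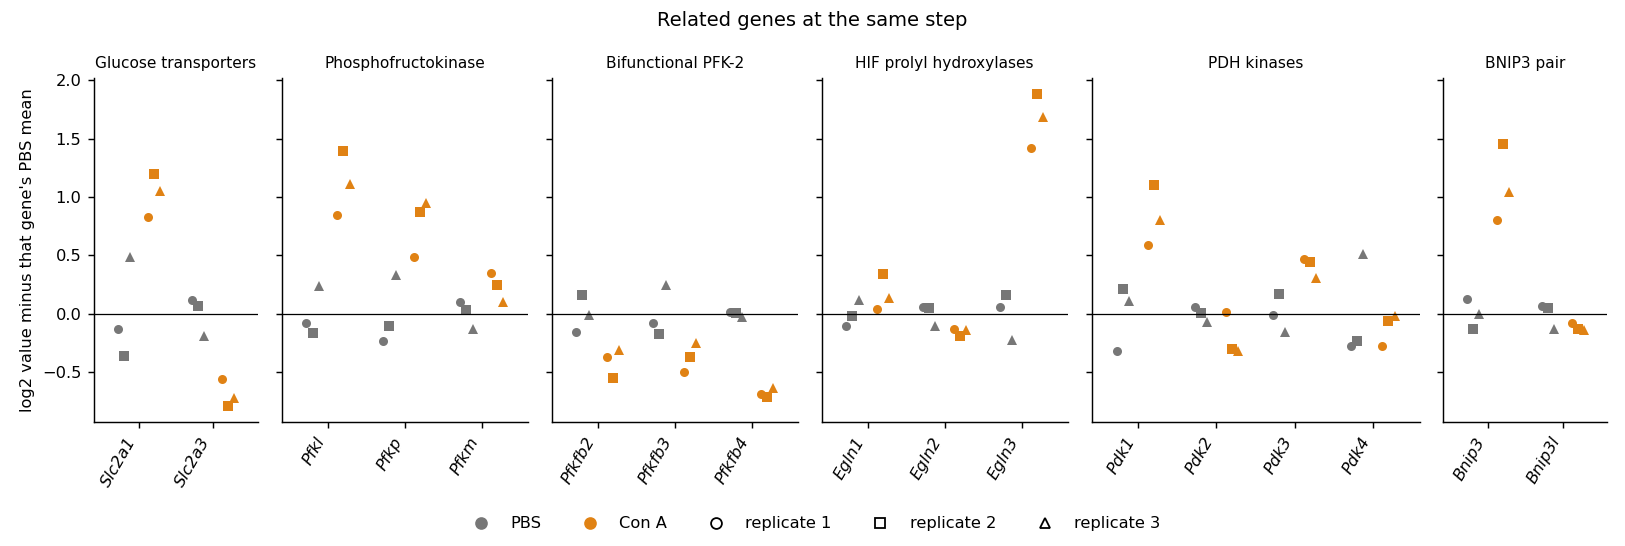
Log2 value of each array minus that gene's PBS mean (vertical axis) for related genes at the same step; grey symbols are PBS arrays and orange symbols Con A arrays, with the shape giving the replicate number. Slc2a1 lies above 0 and Slc2a3 below it in all Con A arrays, Egln3 rises by 1.66 beside Egln1 at 0.17 and Egln2 at -0.15, and Pfkfb2, Pfkfb3 and Pfkfb4 all lie below 0 after Con A.

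The arrays did not contribute alike to the 9 genes that rose. Con A replicate 1 was the lowest Con A array in 8 of the 9 and Con A replicate 2 the highest in 7. Among the PBS arrays, replicates 2 and 3 were each the highest in 4 of the 9. Of the 12 called genes, 5 (Egln3, Pfkfb4, Pfkl, Bnip3 and Slc2a3) passed the threshold in each of the 6 fits with 1 array left out.

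**Figure D4:**
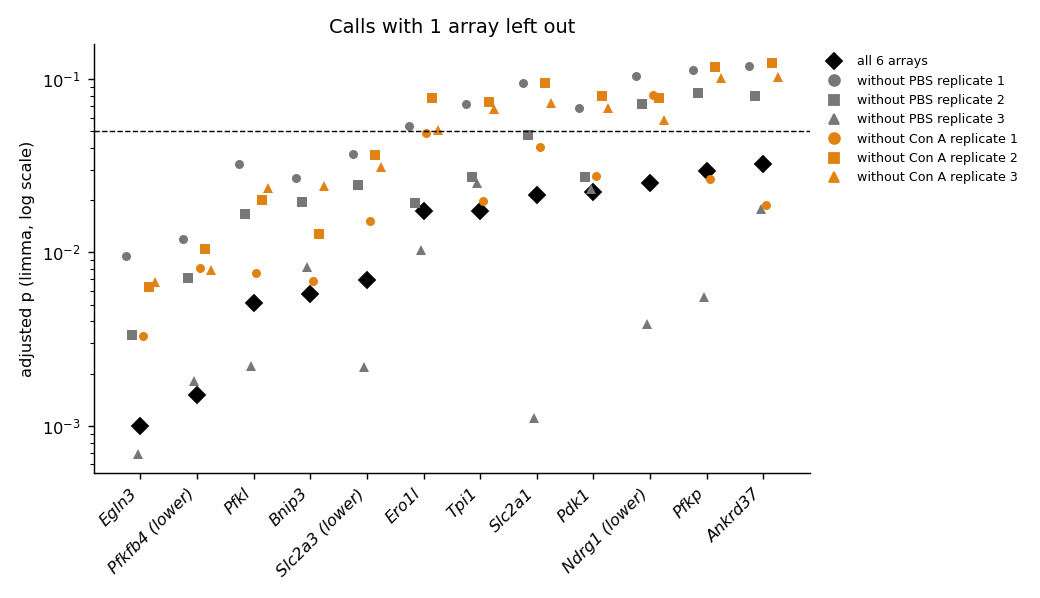
Adjusted p of the 12 called genes (vertical axis, log scale, limma) with all 6 arrays (black diamonds) and with 1 array left out (grey symbols for PBS arrays, orange for Con A arrays); the dashed line is 0.05. Every symbol of Egln3, Pfkfb4, Pfkl, Bnip3 and Slc2a3 lies under the line, while Ndrg1 lies above it in 5 of 6.

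Other genes of these pathways were taken from 8 lists with 115 entries, of which 106 were measured. Of these 11 rose (10.4%, where 4.59% of all genes did) and 10 fell (9.43%, near the 7.22% of all genes). Their median difference was 0.01, and their median level was 8.86 against 7.25 over all genes.

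Further hypoxia-linked targets rose in 5 of 23 cases (21.7%, against 4.59% of all genes) and fell in 2 (8.70%, near the 7.22% of all genes). Ak4, a mitochondrial adenylate kinase gene, read 6.02, 6.35 and 6.64 after PBS and 7.62, 7.94 and 8.02 after Con A, a 2.88-fold rise (limma adjusted p = 0.00208). Its PBS values lay below the array medians of 7.05 to 7.08, where signal over background is unknown without detection calls. Ddit4 (REDD1), an inhibitor of mTOR signalling, rose 1.80-fold, the cyclin gene Ccng2 1.69-fold and the histone demethylase gene Kdm3a 1.53-fold, and these 4 calls held in all 6 fits with 1 array left out. With lmFit alone, without eBayes moderation, Ccng2 kept its call and Ak4, Ddit4 and Kdm3a lost theirs. Fam162a rose by 0.54 (limma adjusted p = 0.0358), and Plod1 and Mxi1 each fell by 0.47 (limma adjusted p = 0.0108 and 0.0482); these 3 fall outside the naming rule and are given after their values were seen. Fam162a and Mxi1 lost their calls in 5 of 6 such fits (all but that without PBS replicate 3), at adjusted p from 0.0502 to 0.133 and from 0.0535 to 0.164, and Plod1 without PBS replicate 1 (0.0524). Mxi1 also missed the threshold with arrays centred on their medians (0.0553) or quantile normalised over again (0.0747). Car9 and Adm, classical hypoxia markers in epithelial cells, lay below the array medians in both groups, at 6.50 ± 0.12 and 6.79 ± 0.15 after PBS and 6.42 ± 0.03 and 6.86 ± 0.10 after Con A, and were likewise picked after their values were seen. Of 12 other parts of the HIF pathway, 0 passed the test by limma. An unadjusted limma p below 0.05 was found in 3 of the 12, a share similar to the 4926 of all 19938 genes. The largest differences among the 12 were those of Hif1an, an asparaginyl hydroxylase that restrains HIF, at -0.41 (limma adjusted p = 0.156, and 0.0114 without PBS replicate 3), and Cited2, a competitor for the HIF coactivator, at 0.37 (limma adjusted p = 0.09).

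The pentose phosphate pathway, which branches from glycolysis and supplies NADPH, had 3 of 7 measured genes lower by the test, where 7.22% of all genes were. The other 4, Pgd, Pgls, Rpia and Tkt, did not pass, with differences from -0.26 to -0.11, and the last 3 of these overlapped between the groups. The difference was below 0 in all 7, as it was in 8774 of all 19938 genes, and G6pdx, the entry enzyme in the cytosol, is not analysed here. H6pd, which starts the pathway in the endoplasmic reticulum, read 10.80, 10.79 and 10.41 after PBS and 9.76, 9.61 and 9.78 after Con A, 1.93-fold lower (limma adjusted p = 0.0032). Rpe, an epimerase, and Taldo1, transaldolase, fell by 0.34 and 0.31 (limma adjusted p = 0.0443 and 0.0333). Rpe lost its call in 5 of the 6 fits with 1 array left out (all but without PBS replicate 3), at adjusted p from 0.0681 to 0.148, and Taldo1 in the same 5, at 0.0827 to 0.118. H6pd kept its call in all 6. Rpe also missed the threshold with arrays centred on their medians (adjusted p = 0.0525) or quantile normalised over again (0.0734).

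Among late glycolysis and pyruvate genes, 1 of 22 rose (4.55%, near the 4.59% of all genes) and 2 fell (9.09%, near the 7.22% of all genes). Eno3, the muscle-type enolase, read 9.11, 8.79 and 9.06 after PBS and 7.53, 8 and 8.10 after Con A, 2.16-fold lower (limma adjusted p = 0.00536). Slc16a7, the monocarboxylate carrier MCT2, was 1.76-fold lower (limma adjusted p = 0.00243). Both calls held with any 1 array left out. Pdk3, a second pyruvate dehydrogenase kinase gene, rose 1.33-fold (limma adjusted p = 0.0409) and lost that call in 5 of 6 such fits (all but without PBS replicate 2), at adjusted p from 0.0682 to 0.134, and with arrays centred on their medians (0.0553).

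Of 10 other glucose carriers and early enzymes, Slc2a9, a urate and sugar carrier, rose 1.47-fold and Pfkfb2 was 1.33-fold lower (limma adjusted p = 0.0442 and 0.0472). That is 1 of 10 in each direction, where 4.59% of all genes were higher and 7.22% lower. Slc2a9 lost its call in 5 fits with 1 array left out (all but without PBS replicate 2), at adjusted p from 0.0503 to 0.153, and Pfkfb2 in all 6, at 0.0627 to 0.153. Centring on the medians ended both calls (adjusted p = 0.0548 and 0.0542), as did quantile normalisation over again (0.0534 and 0.0548). In the glucose-sensing list of 5, Arrdc4, an arrestin gene switched on by sugar phosphates through the MondoA and MLX factors, rose 1.89-fold (limma adjusted p = 0.0111; 0.0509 without PBS replicate 1). Mlx itself fell by 0.41 (limma adjusted p = 0.0229), a call lost without PBS replicate 2, Con A replicate 2 or Con A replicate 3 (adjusted p = 0.0729, 0.0865 and 0.0822). In the glucose-sensing list 20.0% were thus higher and 20.0% lower, against 4.59% and 7.22% of all genes, and each share rests on 1 gene. Txnip, the close relative of Arrdc4 and chosen here after its value was seen, differed by 0.32 (limma adjusted p = 0.181).

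The tricarboxylic acid cycle list had 2 of 19 genes higher (10.5%, against 4.59% of all genes) and 1 lower (5.26%, near the 7.22% of all genes). Acod1, which encodes the enzyme that makes itaconate in activated macrophages, read 11.74, 11.30 and 12.83 after PBS and 13.28, 13.63 and 13.54 after Con A, 2.88-fold higher (limma adjusted p = 0.0301). PBS replicate 3 was the highest control in this gene. The call was lost in all fits with 1 array left out but that without PBS replicate 3, at adjusted p from 0.0558 to 0.121, and with an intensity trend in the fit (0.0633). Dld, a shared subunit of mitochondrial dehydrogenases, rose 1.43-fold (limma adjusted p = 0.00946), and Mdh2, mitochondrial malate dehydrogenase, fell by 0.38 (limma adjusted p = 0.0125; 0.0502 without Con A replicate 3). Of 8 glycogen genes, 1 rose (12.5%, against 4.59% of all genes). Gyg, the glycogenin on which glycogen is primed, rose 1.43-fold with a tight spread, from 12.26 ± 0.03 to 12.78 ± 0.02 (limma adjusted p = 0.0033).

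**Figure D5:**
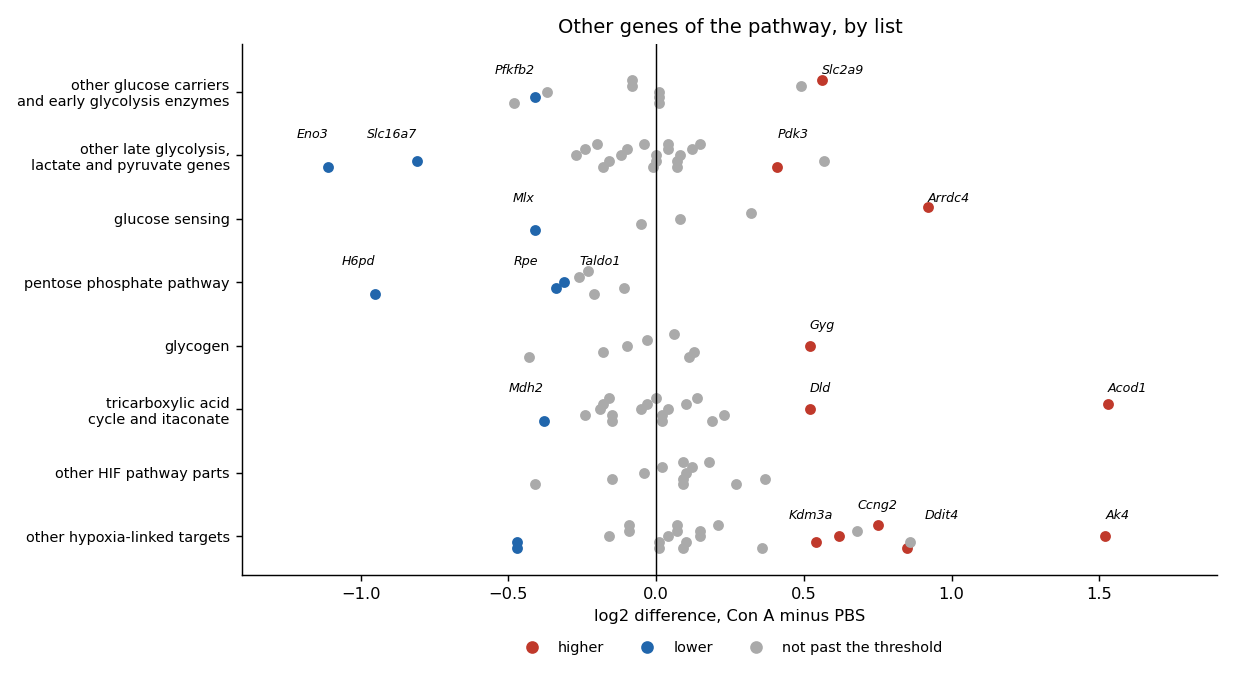
Log2 difference between Con A and PBS (horizontal axis) of the 106 other measured genes in 8 lists (rows); each point is a gene, red if higher, blue if lower and grey if not past the threshold, and small vertical offsets only separate points. All 7 pentose phosphate genes lie left of 0, and Acod1 and Ak4 lie farthest right, at 1.53 and 1.52.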

How the data were processed

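Per the labels' protocols, RNA of CD11b+Gr-1+ liver cells went through whole-transcriptome amplification and biotin labelling. Log2 expression on 6 arrays was deposited, made by the authors with RMA and Partek, named without versions per the submitters' processing notes. The platform annotation gave 1 symbol to 21789 of 35556 rows. Only those were used, with the brightest row for each gene, which left 19938 genes. No detection calls come with these values, and precision is limited by the number of arrays.

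The 3 Con A arrays were set against the 3 PBS arrays with lmFit and eBayes of limma 3.58.1 (R 4.3.3), two-sided, with Benjamini-Hochberg adjustment over 19938 genes and 95% intervals. The fit was tested on simulated data. Tables and plots used Python 3.11.15, pandas 2.3.3 and matplotlib 3.10.9. Promoter letters came from RefSeq windows of GRCm38.p6, which held 28 of the 32 members.

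The members and lists were chosen with earlier results of these data known. All members found are named, and of each other list up to 4 genes past the threshold with the largest differences, or the 2 largest where 0 passed. Of 15 alternatives, 14 were planned and 1, the brightest row with a RefSeq mRNA accession, was added after seeing the data.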

Additional observations from a re-analysis of the deposited data

How the results depend on the processing

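The alternatives were quantile normalisation over again, centring on array medians, the mean over a gene's rows, a filter on genes below the median level, an intensity trend with a robust fit, no moderation, array weights, the replicate number as a block, each array left out, and, chosen after seeing the data, the brightest row with a RefSeq mRNA accession. No called member changed direction under any of the 15. Without moderation, 1 member was higher, Egln3, and 1 lower, Pfkfb4 (290 and 381 of all genes, against 915 and 1440). Pfkl, Bnip3 and Slc2a3, which passed with each array left out, then missed the threshold (adjusted p = 0.0754, 0.0799 and 0.0697, lmFit without eBayes). Outside the members, 9 named genes passed with each array left out. Of these, Eno3, H6pd, Dld, Ddit4, Kdm3a and Ak4 also missed the threshold without moderation, while Slc16a7, Gyg and Ccng2 passed it. With 1 array left out, higher members numbered 3 to 10 and lower members 2 to 3, and all genes 458 to 1114 higher and 682 to 1651 lower. All-gene counts of higher calls moved by more than 1.5 times without PBS replicate 1 (458), Con A replicate 2 (563) or Con A replicate 3 (559), and of lower calls without those (682, 709 and 921) or PBS replicate 2 (912). Hk1, which did not pass as reported, was higher by 0.27 with the mean over its rows and by 0.56 with its RefSeq-annotated row (limma adjusted p = 0.0409 and 0.00793). The median difference of the members ranged from 0.05 to 0.12.

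Replicate numbers are shared between the groups, but the labels do not say that they pair the samples, so they were not treated as pairs. Deviations of same-numbered arrays correlated at 0.23, -0.17 and 0.56 for replicates 1, 2 and 3. Against arrays of other numbers the correlations ran from -0.43 to 0.21, -0.38 to 0.54 and -0.54 to -0.01. These values do not settle whether the arrays are paired. With the replicate block, 9 members were higher and 4 lower (1015 and 1524 of all genes), and Pfkfb3 passed at limma adjusted p = 0.048, while Pfkfb2 and Rpe no longer passed (0.0696 and 0.0551), nor did Taldo1 (0.0656). Pfkm and Epas1 lie below the array medians, and without detection calls their signal over background is unknown. The PBS values of Pdk1 and Ankrd37 lie near those medians, and the same limit holds for them.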
